A study of Mus musculus with 13 samples.

Results

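The Nodal and Activin pathway was followed in mouse embryonic stem (ES) cells through 8 genes, chosen by symbol from the table of read counts. They are the ligand genes Nodal and Inhbb, the receptor Acvr2b and co-receptor Tdgf1, and the inhibitors Lefty1, Lefty2, Smad7 and Skil. They are 8 of the 24079 genes of the table, and all 8 passed the filter on low counts, which 13972 genes passed. Asynchronous CGR8 cells, an ES line kept on gelatin with serum and leukemia inhibitory factor, received either 0.5% DMSO alone (control) or 10 μM PhenDC3, also in 0.5% DMSO, over 48 h. PhenDC3 is a small bisquinolinium molecule that binds and stabilizes G-quadruplexes (G4), the stacked structures that guanine-rich DNA can form. RNA-seq covered 3 libraries of each condition, and short nascent strands, the RNA-primed DNA of newly fired replication origins, were sequenced (SNS-seq) for 3 control and 2 PhenDC3 replicates. Each condition was tested in a single line, at a single dose and a single time.

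Nodal and the activins are secreted ligands of the TGF-β family. They bring together type I and type II activin receptors, Nodal with the help of the co-receptor encoded by Tdgf1, and the type I receptor phosphorylates SMAD2 and SMAD3. These enter the nucleus with SMAD4 and switch on target genes together with factors such as FOXH1. Several targets, among them Lefty1, Lefty2, Smad7 and Skil, encode inhibitors of the same pathway. ES cells make Nodal themselves and express its receptors, and the pathway is best known for setting up mesoderm and endoderm in the early embryo.

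The 6 RNA libraries held between 22232014 and 29486502 counts. The table counts whole cultures, so fewer cells that express a gene cannot be told apart from less RNA per cell. Nothing in the labels says that the RNA libraries came from separate cultures, and the p-values measure the spread between these libraries. The ribosomal gene Rn45s took between 2.55% and 5.70% of the counts in controls and between 0.172% and 1.43% with PhenDC3. With no scaling beyond the total count, the median log2 fold change of all genes moved from 0.0096 to 0.16. Under that scaling 3583 genes were called higher and 1688 lower, in place of 2518 and 2617, and after removal of Rn45s and Lars2 from the totals 3089 were higher and 2060 lower. Each of the 8 genes kept its direction under every scaling tried. The pluripotency genes Pou5f1, Nanog and Sox2 had mean levels of 1486, 477 and 625 CPM (the count of a gene scaled to a common library size) in controls and 1091, 1112 and 728 with PhenDC3 (edgeR adjusted p 0.0113, 0.000101 and 0.122). They belong to a list of 8 ES markers, of which 3 were called higher, 2 lower and 3 not called. Utf1, also on it, was at 232 CPM in controls and 57.3 CPM with PhenDC3 (edgeR adjusted p 0.000234).

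**Figure D1:**
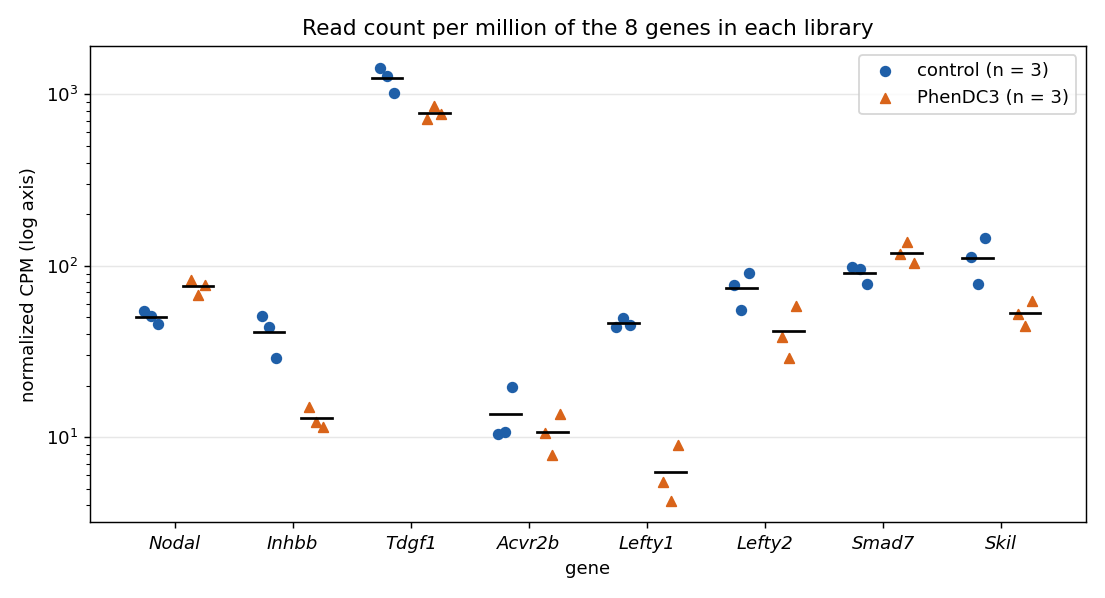
Normalized CPM (log axis) of the 8 genes in each of the 3 control libraries (circles) and the 3 PhenDC3 libraries (triangles), with black lines at the group means. Lefty1 lay between 43.9 and 49.6 CPM in controls and between 4.27 and 8.97 CPM with PhenDC3, while Nodal was higher in every PhenDC3 library.

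After 48 h in PhenDC3, the RNA of 5 of the 8 genes fell (Lefty1, Inhbb, Skil, Lefty2 and Tdgf1) and that of 1, Nodal, rose. Smad7 and Acvr2b did not pass the test. A gene was called at an adjusted p of at most 0.05 in edgeR's quasi-likelihood test. Of all genes tested, 36.8% were called, 18.0% higher and 18.7% lower. DESeq2 called 7 of the 8 genes, Smad7 among them, and 38.9% of all genes. The median log2 fold change was −0.75 over the 8 genes and 0.0096 over all genes. The 2 groups of libraries did not overlap for 6 of the 8 genes, and for 50.6% of all genes tested. The number of the 8 genes that were called lay between 5 and 7 over the alternative settings.

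**Figure D2:**
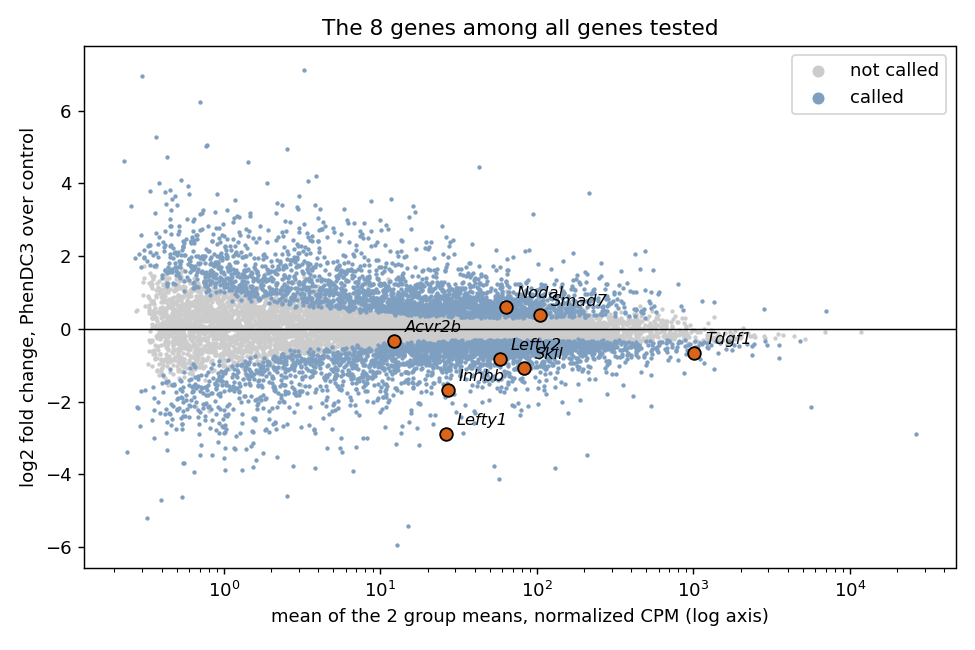
Log2 fold change of PhenDC3 over control against the mean of both group means in normalized CPM (log axis) for all 13972 genes tested, with genes called at an adjusted p of at most 0.05 in blue, the rest in gray and the 8 pathway genes as labeled orange points. Lefty1, with a log2 fold change of −2.88, is the lowest of the 8, and Nodal and Smad7 lie above 0.

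Nodal itself was the gene that rose. Its normalized level was 54.6, 51.2 and 45.7 CPM in the controls and 82.8, 67.7 and 77.7 CPM with PhenDC3, in the order of replicates 1, 2 and 3, which is kept throughout. All PhenDC3 libraries lay above all controls. The mean went from 50.5 ± 4.53 CPM to 76.1 ± 7.69 CPM (SD, n = 3 each), a log2 fold change of 0.59 ± 0.12 (SE) with an edgeR adjusted p of 0.00567. The gene lies at chr10:61417972-61425338 on the plus strand of mm10, and its fold change kept its call in every alternative, with adjusted p between 0.000125 and 0.0354.

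The other ligand gene, Inhbb, moved the opposite way. Inhbb encodes the βB subunit, which pairs with itself to form activin B. It was at 50.8, 43.9 and 29.1 CPM in the controls and at 15.0, 12.3 and 11.5 CPM with PhenDC3. The lowest control was above the highest PhenDC3 library, although the controls themselves were spread widely. Its log2 fold change was −1.67 ± 0.21 (SE), a 3.18-fold lower level, with an edgeR adjusted p of 0.00054. Inhbb lies at chr1:119415463-119422248 on the minus strand.

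Tdgf1 encodes the membrane-bound co-receptor Cripto, which Nodal needs to reach its receptors. It had 1433, 1286 and 1015 CPM in controls and 714, 861 and 772 CPM with PhenDC3. The groups did not overlap. This is a log2 fold change of −0.67 ± 0.15 (SE), with an edgeR adjusted p of 0.00733. Of the 50-base words of its transcripts, 8.86% also occur in the annotated copy Tdgf1-ps1, so a small part of its reads could have been assigned differently. Tdgf1 lies at chr9:110939608-110946158 on the minus strand.

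Acvr2b, a type II receptor that binds activins and Nodal, was at a low level in all libraries. It was at 10.5, 10.7 and 19.6 CPM in controls and at 10.6, 7.90 and 13.7 CPM with PhenDC3. The groups overlapped, and control replicate 3 stood above the other 5 libraries. The log2 fold change was −0.34 ± 0.28 (SE), its 95% interval ran from −0.97 to 0.30, and the edgeR adjusted p was 0.375. Without control replicate 3 it was 0.02 (adjusted p 0.96). Acvr2b lies at chr9:119401583-119442148 on the plus strand.

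Lefty1 showed the widest change of the 8. The Lefty proteins are secreted inhibitors that bind Nodal and its co-receptor, and their genes are direct targets of the pathway in ES cells. Lefty1 had 43.9, 49.6 and 45.2 CPM in controls and 5.48, 4.27 and 8.97 CPM with PhenDC3. These correspond to 1212, 1088 and 1046 counts and to 158, 102 and 247 counts. The groups lay far apart, and the control libraries were close to one another. The log2 fold change was −2.88 ± 0.24 (SE), a 7.39-fold lower level, with an edgeR adjusted p of 9.5e-05, and it ranked 49 among the 13972 genes tested from the lowest log2 fold change upward. Left-out libraries and the other settings gave log2 fold changes between −3.24 and −2.68.

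Lefty2, which lies on chromosome 1 with 35914 bases between its end and the start of Lefty1, fell less. It was at 76.8, 55.5 and 90.3 CPM in controls and at 38.2, 29.1 and 58.4 CPM with PhenDC3. The highest PhenDC3 library, replicate 3, was above the lowest control, replicate 2, so the groups overlapped. The log2 fold change was −0.82 ± 0.26 (SE), with an edgeR adjusted p of 0.0328. The call was lost without control replicate 1 (adjusted p 0.0943), control replicate 3 (0.0784), PhenDC3 replicate 1 (0.108) or PhenDC3 replicate 2 (0.0793), without a filter on low counts (0.0543) and with total counts as the only scaling (0.0532). Lefty1 and Lefty2 are similar in sequence: 17.9% of the 50-base words of Lefty1 transcripts also occur in Lefty2, and 12% of those of Lefty2 in Lefty1. Reads from these stretches could have been assigned to either gene or dropped. Lefty1 lies at chr1:180935022-180938401 and Lefty2 at chr1:180893108-180899107, both on the plus strand.

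The 2 inhibitors that act inside the cell had log2 fold changes of opposite sign, with only that of Skil called. Skil encodes SnoN, a co-repressor that binds the SMADs on DNA. It was at 112, 77.8 and 145 CPM in controls and at 52.1, 44.6 and 62.7 CPM with PhenDC3. The groups did not overlap, though the controls were uneven. Skil had a log2 fold change of −1.07 ± 0.22 (SE), with an edgeR adjusted p of 0.0056. Skil lies at chr3:31095058-31122923 on the plus strand.

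Smad7 encodes an inhibitory SMAD that marks the receptors for breakdown. It had 98.2, 96.1 and 78.5 CPM in controls and 117, 137 and 103 CPM with PhenDC3. The lowest PhenDC3 library was just above the highest control. Its log2 fold change was 0.39 ± 0.14 (SE) with an edgeR adjusted p of 0.0562, which missed the threshold. It passed with DESeq2 (adjusted p 0.0396), without PhenDC3 replicate 3 (0.0445), with total counts as the only scaling (0.0205) and with Rn45s and Lars2 left out of the totals (0.0316).

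To compare the genes with one another, levels were divided by the length of their annotated exons. In controls Tdgf1 was far above the others, at 646 ± 110 CPM per kb (SD, n = 3). Lefty2 (30 ± 7.08), Lefty1 (28.5 ± 1.85), Nodal (24.1 ± 2.16), Smad7 (20.5 ± 2.43), Skil (15.8 ± 4.78), Inhbb (9.69 ± 2.60) and Acvr2b (1.28 ± 0.49 CPM per kb) followed. The ranges of the libraries overlapped between Lefty2 and Lefty1, Nodal and Smad7, Smad7 and Skil, and Skil and Inhbb, and were separate for the other neighbors in this order. With PhenDC3, Tdgf1 remained at the top at 406 ± 38.3 CPM per kb, and Nodal (36.3 ± 3.67) and Smad7 (26.8 ± 3.84) came next. Lefty2 was then at 16.9 ± 6.05, Skil at 7.52 ± 1.28, Lefty1 at 3.85 ± 1.51, Inhbb at 3.04 ± 0.43 and Acvr2b at 1.01 ± 0.27 CPM per kb. Here only the neighbors Smad7 and Lefty2, and Lefty1 and Inhbb, had ranges that overlapped. Per kb, Lefty1 thus stood above Nodal in every control library and below it, and below Smad7, Lefty2 and Skil, in the PhenDC3 libraries. Before the division by exon length, Lefty1 was below Nodal in every control library as well.

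The other genes of the pathway were read from lists ordered by role. Of the 34 listed genes that are not among the 8, 28 passed the filter. Of these, 12 rose, 2 fell and 14 were not called, with a median log2 fold change of 0.41 beside 0.0096 over all genes. Shares over all genes tested were 18.0% for rises and 18.7% for falls.

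Among ligand genes and the proteases that cut their precursors, 4 of 7 tested rose and 2 fell. Furin and Pcsk6, convertases that cleave the Nodal precursor, had log2 fold changes of 0.89 (edgeR adjusted p 0.00129) and 0.80 (0.00115). Gdf11, an activin-like ligand, was low at 0.758 and 1.66 CPM and rose by 1.11 on the log2 scale (0.0166), a call that was lost without control replicate 2 or PhenDC3 replicate 1 (adjusted p 0.05 and 0.0685). Gdf3, a Nodal-related ligand of ES cells, fell by 0.56 from 99.6 to 67.4 CPM (adjusted p 0.00838). Inhba, the subunit gene of activin A, had 3 counts in a single library, and Inha, the inhibin subunit gene, was not called.

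Of 8 receptor genes tested, 5 rose and Tdgf1 fell. Acvr1b, the type I receptor of Nodal and activin, went from 30.3 to 47.4 CPM, a log2 fold change of 0.64 (edgeR adjusted p 0.0205), and the type II receptor gene Acvr2a had 0.42 (0.0455). Cfc1, the relative of Tdgf1 that encodes Cryptic, rose from 0.629 to 1.82 CPM (adjusted p 0.00737). Tgfbr3 and Tgfbr2, receptors for TGF-β, had log2 fold changes of 1.63 (0.00275) and 1.19 (0.0300) at levels under 6 CPM. Only 3 receptor genes were called when PhenDC3 replicate 1 or 3 was left out, in place of 6. Acvr1b lost its call without PhenDC3 replicate 1 (adjusted p 0.0671) or 3 (0.0714), Acvr2a without control replicate 2 or 3 or any PhenDC3 replicate (0.0591 to 0.138), with TMM (0.0507) and without a filter on low counts (0.0602), and Tgfbr2 without control replicate 1 or 2 or any PhenDC3 replicate (0.0522 to 0.0878).

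Smad3 rose and Smad2 was not called. Smad3 went from 14.5 to 34.1 CPM, a log2 fold change of 1.23 (edgeR adjusted p 0.00144). Smad2 had 68.2 and 80.8 CPM (log2 fold change 0.25, adjusted p 0.132), but was called with total counts as the only scaling (0.0172) and with Rn45s and Lars2 left out of the totals (0.0401). Smad4, the shared partner, had 71.2 and 66.3 CPM (−0.10, adjusted p 0.557, and 0.05 with total counts as the only scaling). Foxh1, the DNA-binding partner of SMAD2 and SMAD3, fell by 0.74 on the log2 scale from 45.7 to 27.4 CPM (adjusted p 0.00718). Trim33, which joins activated SMADs at chromatin, rose by 0.64 (0.00153), and of the 8 SMAD and partner genes 2 rose, 1 fell and 5 were not called.

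**Figure D3:**
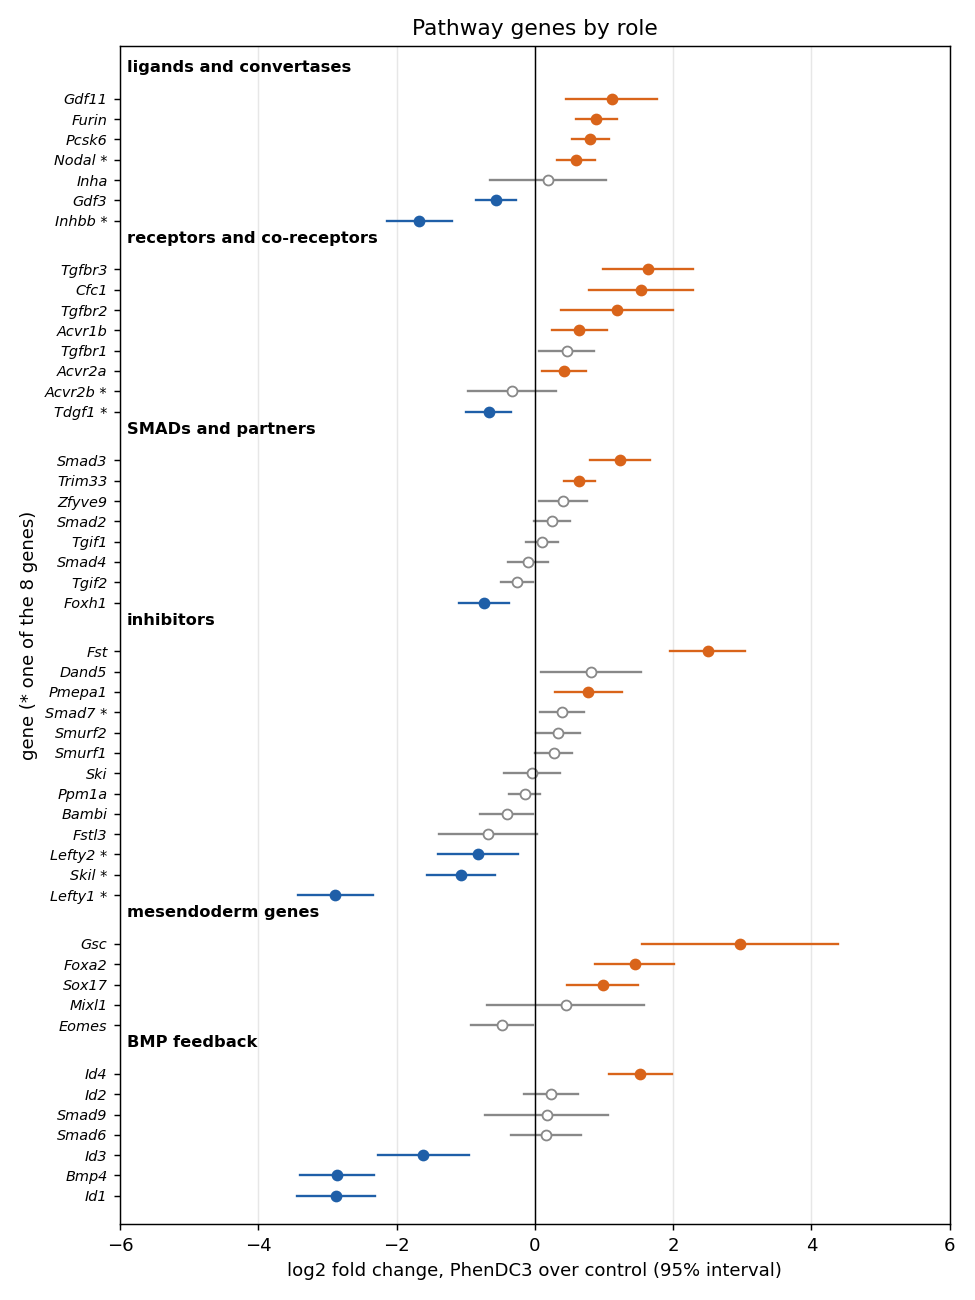
Log2 fold change of PhenDC3 over control with its 95% interval for tested genes of the pathway lists, by role, in orange where called higher, in blue where called lower and as open gray circles where not called. The 8 genes carry an asterisk, and the inhibitors hold both Fst at 2.50 and Lefty1 at −2.88.

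Of the 13 inhibitor genes tested, Lefty1, Lefty2 and Skil fell, 2 rose and 8 were not called. Fst, which encodes follistatin, the secreted trap of activins, rose from 2.50 ± 0.44 to 14.2 ± 3.52 CPM (SD, n = 3 each), a log2 fold change of 2.50 with an edgeR adjusted p of 0.000159. Pmepa1, a membrane protein that holds SMAD2 and SMAD3 back, had a log2 fold change of 0.77 (adjusted p 0.0196). In all, 3 of these genes were called, in place of 5, without control replicate 1, PhenDC3 replicate 1 or PhenDC3 replicate 2, and each time Pmepa1 (adjusted p 0.0536 to 0.0694) and Lefty2 were lost. The Nodal antagonist Cer1 was at no more than 4 counts in any library.

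Genes that mark mesoderm and endoderm downstream of Nodal were at low levels in both conditions, and T, Lhx1, Fgf8 and Wnt3 were under the filter. Of the 6 tested, 3 rose (Foxa2, Gsc and Sox17), 1 that is not named here fell, and 2 (Eomes and Mixl1) were not called. Foxa2, an endoderm transcription factor, had 1.39 and 3.79 CPM (log2 fold change 1.44, edgeR adjusted p 0.00273), and Sox17, another, 3.63 and 7.17 CPM (0.98, 0.00959). Gsc had 1, 2 and 7 counts in controls and 42, 31 and 17 counts with PhenDC3 (log2 fold change 2.97, adjusted p 0.00642, and 4.10 without control replicate 3). Markers of primitive endoderm, which can arise in ES cultures, moved with Foxa2, Gsc and Sox17. Of these markers, 5 of 8 were called higher and none was at 0. Their summed level was 469 to 572 CPM in controls and 1040 to 1400 CPM with PhenDC3. Most of this sum came from Lama1 (222 and 442 CPM) and Col4a1 (219 and 690 CPM), while the lineage factors Gata4 (11.2 and 22.4 CPM) and Gata6 (7.20 and 13 CPM) were low and Sox7, Dab2 and Foxq1 were not called. For trophoblast, 4 of 7 tested markers were called higher, with sums of 62.6 to 83.4 and 139 to 178 CPM, carried by Krt8 and Tfap2c, and Cdx2 was at 0.339 and 0.331 CPM. For the neural lineage 2 of 4 were higher and 1 lower, with sums of 22.8 to 25.9 and 39.3 to 41.5 CPM. Of 4 fibroblast markers tested, Thy1 was called lower (5.04 and 2.03 CPM) and 3 were not called, Dcn and Lum were at 0 in every library, and all summed to 8.39 to 8.54 and 6.02 to 8.57 CPM. The part of these other cell types in the changes of the 8 genes was not tested.

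Genes of the BMP branch, the sister pathway that works through other SMADs, were read alongside. Of 7 tested, Bmp4, Id1 and Id3 fell, Id4 rose and 3 were not called. Bmp4, the ligand gene, went from 59.3 to 8.13 CPM (log2 fold change −2.86, edgeR adjusted p 8.9e-05). Id1 and Id3, which encode inhibitors of basic helix-loop-helix factors and are standard BMP targets, had log2 fold changes of −2.88 (0.000108) and −1.61 (0.00314), and Id4 had 1.52 (0.000688). The log2 fold changes of Lefty1, Bmp4 and Id1 differed by less than their standard errors.

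Genes whose pattern over the 6 libraries was most like each of the 8 were sought among 8790 genes with a mean of at least 10 CPM, by the root mean square difference of log2 CPM after centering each gene. For Lefty1 they were Crmp1 (0.134) and Bmp4 (0.14). For Nodal they were Rsbn1l (0.0565) and Lrrc58 (0.0606), and for Smad7 Sucla2 (0.0181) and Npr1 (0.0252). Skil had Lss (0.0902) among its 2 nearest genes, and Lefty2 was nearest to Mmp14 (0.0933) and Pnma2 (0.0954), and Tdgf1 to Oxnad1 (0.0751) and Rhoc (0.0822). Acvr2b had Trerf1 (0.0742) and Nup188 (0.0795) nearest, and Inhbb had E2f2 (0.211) and Ccrn4l (0.213), the most distant of these neighbors.

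Since PhenDC3 binds G4, the 250 bases upstream of the start were searched for a G4 motif on either strand, 4 runs of at least 3 G with loops of 1 to 7 bases. RefSeq promoters (GRCm38.p6, the build of mm10) were matched for 4 of the 8 genes, Nodal, Inhbb, Acvr2b and Tdgf1. For Acvr2b the start is that of the curated transcripts, at 119402178, and its window lies inside the first exon of predicted transcripts that begin upstream, where the gene record does. The other 3 are shown to compare where such runs lie. They read 5′ to 3′ on the strand of the gene and end at the base before the start, with capitals for runs of 3 or more G or of 3 or more C.
Nodal, chr10:61417722-61417971, plus strand: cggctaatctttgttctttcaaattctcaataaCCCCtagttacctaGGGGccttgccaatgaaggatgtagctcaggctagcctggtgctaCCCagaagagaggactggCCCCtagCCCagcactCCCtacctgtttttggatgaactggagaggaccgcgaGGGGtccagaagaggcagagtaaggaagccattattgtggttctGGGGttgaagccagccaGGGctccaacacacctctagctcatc
Inhbb, chr1:119422249-119422498, minus strand: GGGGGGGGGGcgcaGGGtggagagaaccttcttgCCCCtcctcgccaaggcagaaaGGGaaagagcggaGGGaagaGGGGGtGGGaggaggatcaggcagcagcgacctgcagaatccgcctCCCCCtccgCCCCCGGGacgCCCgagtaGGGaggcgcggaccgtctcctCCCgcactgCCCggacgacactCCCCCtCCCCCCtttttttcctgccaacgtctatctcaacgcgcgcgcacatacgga
Tdgf1, chr9:110946159-110946408, minus strand: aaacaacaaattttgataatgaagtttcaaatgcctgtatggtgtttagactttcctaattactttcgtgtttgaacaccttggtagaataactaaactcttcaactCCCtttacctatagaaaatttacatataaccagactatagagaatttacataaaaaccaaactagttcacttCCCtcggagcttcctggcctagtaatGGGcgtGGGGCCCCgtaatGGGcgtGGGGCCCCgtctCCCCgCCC

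A G4 motif was found in the Acvr2b window alone, on the strand opposite to the gene, 35 bases long and from 116 to 82 bases upstream of the curated start. Over all 32851 promoters, 16.7% of windows of this length held one. With loops of up to 12 bases, 3 of the 4 promoters held a motif (Inhbb, Acvr2b and Tdgf1), beside 25.9% of all. The GC content was 72.8% for Acvr2b, 68.0% for Inhbb, 53.2% for Nodal and 42.0% for Tdgf1, around a median of 52.4% for all promoters. The letters TGTNNATT, a core of FOXH1 sites, occurred on either strand 2 times in the Tdgf1 window and in none of the other 3, beside 10.9% of all promoters. The SMAD letters CAGAC occurred on either strand in the windows of Acvr2b and Tdgf1, 1 time each, beside 42.2% of all promoters.

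**Figure D4:**
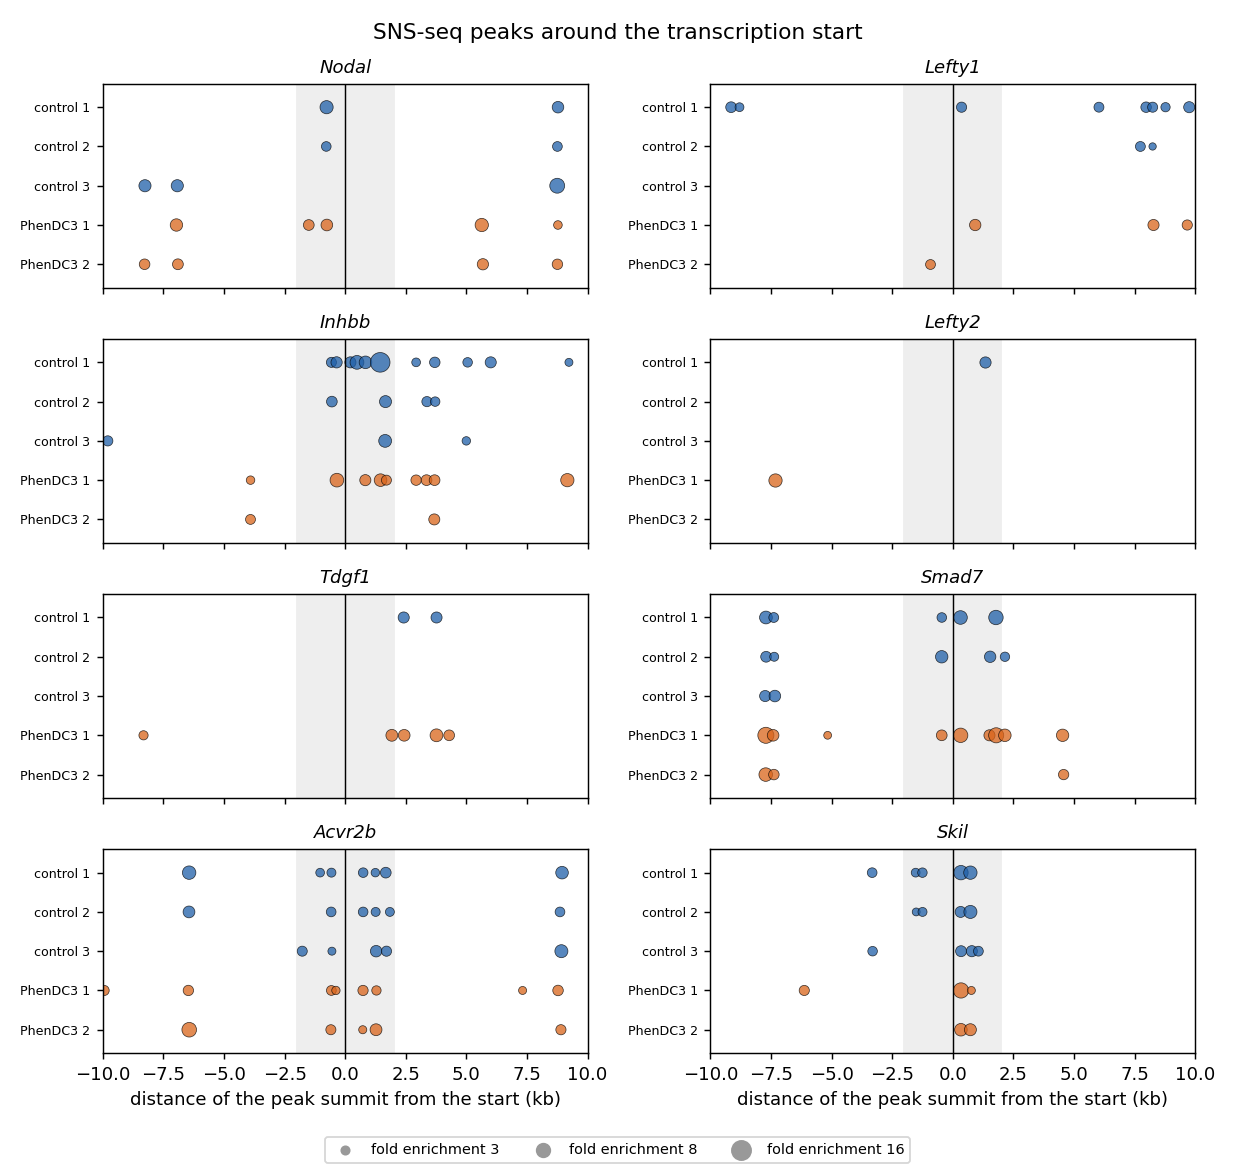
Distance in kb of SNS-seq peak summits from the start of each of the 8 genes, positive in the direction of transcription, in the 3 control lists (blue) and the 2 PhenDC3 lists (orange), with the area of a point for its fold enrichment and gray for the 2 kb on each side. Skil and Acvr2b have peaks in the gray band in all 5 lists, and Lefty2 has 1 there in control replicate 1 alone.

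Replication origins near the 8 genes were read from the SNS-seq peaks, whose lists held between 79377 and 144103 peaks outside the mitochondrial genome. Within 2 kb of the start, 7, 5 and 3 of the 8 genes had a peak in the control lists and 7 and 3 in the PhenDC3 lists, by replicate number. For all 13949 tested genes with a curated start, the shares were 67.2%, 64.6% and 39.2% in controls and 64.3% and 46.0% with PhenDC3, so the 2 lists with few of the 8 genes also had the lowest shares over all genes. In at least 2 controls 5 genes had a peak, and in both PhenDC3 lists 3. The lists hold no read counts and no test of a difference was run.

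Skil had an origin at nearly the same position in all 5 lists. A peak summit lay 332, 320 and 338 bases downstream of its start in controls and 335 and 331 bases downstream with PhenDC3, with fold enrichments over the RNase-treated library of 9.11, 5.36, 5.28, 10.2 and 6.94. Acvr2b also had peaks on both sides of its start in all 5 lists. Near Inhbb, summits at 1446, 1665 and 1650 bases in controls had fold enrichments of 16.9, 6.36 and 7.25, and PhenDC3 replicate 1 had 1 at 1461 bases with 7.02. In PhenDC3 replicate 2 the nearest downstream summit was at 3677 bases, outside the 2 kb.

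Nodal had a peak upstream of its start at −765 and −778 bases in control replicates 1 and 2 and at −754 bases in PhenDC3 replicate 1, with fold enrichments of 7.60, 4.11 and 5.99. The other 2 lists had none there. A second origin, past the annotated end of the gene at between 8747 and 8779 bases from the start, was present in all 5 lists. Smad7 had peaks within 2 kb in the same 3 lists as Nodal. Farther upstream it had a summit in all 5 lists. This lay at −7710, −7703 and −7741 bases in controls and at −7713 and −7719 bases with PhenDC3. Near Lefty1 the summits did not coincide, at 358 bases in control replicate 1, 921 in PhenDC3 replicate 1 and −953 in PhenDC3 replicate 2. Within 2 kb, Lefty2 had 1 at 1341 bases in control replicate 1, and Tdgf1 had 1 at 1926 bases in PhenDC3 replicate 1. Outside the 2 kb, Tdgf1 had summits at 2416 and 3770 bases in control replicate 1. PhenDC3 replicate 1 had summits at 2436 and 3768 bases of Tdgf1, among others.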

How the data were processed

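For RNA-seq, the authors sequenced stranded poly(A) libraries, mapped reads with TopHat2 (2.1.1) and Bowtie2 (2.2.9) and counted them per gene with HTSeq-count (0.6.1p1), and the deposited counts are raw. The gene annotation and the strand setting are not given in the sources used here. No exon of the 8 genes overlaps an annotated exon of another gene. For SNS-seq, the authors mapped to mm10, called narrow peaks in single replicates with MACS2 (2.1.0), with an RNase-treated library of that condition as background, and kept peaks inside SICER regions. The deposited lists give fold enrichment as a ratio to that library and −log10 of a p-value, with no read counts, so their depth is unknown. The deposited columns of the authors' own DESeq2 comparison (mean, log2 fold change, error and p-values) and a table of normalized pseudo-counts were not used, and 0 other columns of samples were found.

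Raw counts were filtered with filterByExpr, scaled by relative log expression (RLE) and tested with edgeR 4.0.16 (R 4.3.3, robust quasi-likelihood, 3 against 3, no covariate), with Benjamini-Hochberg adjustment over all 13972 genes tested. The script was tested on simulated counts. CPM in the text are counts divided by the scaled library size. Exon lengths, starts and promoters are from RefSeq on GRCm38.p6. An SNS-seq peak was counted for a gene when any part of it lay within the given distance of a curated start. The distances printed are those of its summit. Libraries were grouped by their labeled treatment. Alternatives were TMM, DESeq2 1.42.0, no filter, a mean of at least 1 CPM, each library left out, the replicate number as a block, wider distances and stronger peaks for SNS-seq, and longer loops. The 2 scalings by total counts were added after seeing the data. Named genes are the 8, Smad2, Smad3, Smad4, Foxh1, Acvr1b and Acvr2a, up to 4 further called genes of a list by adjusted p, Pou5f1, Nanog and Sox2, and for each of the 8 the 2 nearest in pattern. A few genes that the rule names are not reported here. Genes named as low or not called, and the lineage markers named, were added after their values were seen. The 8 genes and all lists were chosen with earlier results of these data known.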

Additional observations from a re-analysis of the deposited data

How the results depend on the processing

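Nodal, Inhbb, Tdgf1, Lefty1 and Skil kept direction and call in every alternative. With 3 libraries a group, calls near the threshold turned on single libraries. With each library left out in turn, 3332 to 5416 genes were called, 1709 to 2689 higher and 1623 to 2727 lower, and 5 to 7 of the 8 genes. Called receptor genes were then 3 to 5 (6 in the full data), inhibitor genes 3 to 7 (5 in the full data), and log2 fold changes lay between −1.14 and −0.62 for Lefty2, 0.28 and 0.48 for Smad7, and −0.55 and 0.02 for Acvr2b, which reversed to 0.017 without control replicate 3. Lefty2 was not called without a filter on low counts (−0.83) or with total counts as the only scaling (−0.67). Smad7 was called with DESeq2 (0.39), total counts (0.54) and total counts without Rn45s and Lars2 (0.48). Total counts gave 1688 genes lower, 5 called SMADs and partners (3 in the full data) and 8 inhibitors, total counts without Rn45s and Lars2 also 5 and 8, and Smad4 reversed to 0.053 with total counts. The cause of these changes was not tested. Same-numbered control and PhenDC3 libraries deviated together with r of 0.0904, 0.544 and 0.405, and every library correlated best with its own number, a hint from the data that the labels do not state. With the replicate block, 7489 genes were called (3797 higher, 3692 lower), with 6 SMADs and partners, 10 inhibitors, Smad7 (0.39, adjusted p 0.00202) and Smad2 (0.25, adjusted p 0.0292) among them. For SNS-seq, genes with a peak in both PhenDC3 lists were 5 within 5 kb and 6 within 10 kb in place of 3, and 3 to 7 with 1 list left out. Genes with a peak in at least 2 controls were 3 to 5 with 1 control left out. With loops of up to 12 bases 3 promoters held a G4 motif in place of 1.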

Other observations

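Within a library, where depth and scaling cancel, the Lefty genes were read against Nodal as ratios of CPM per kb. In controls Lefty1 over Nodal was 1.04, 1.25 and 1.28, and the PhenDC3 libraries gave 0.0855, 0.0814 and 0.149. Control values of Lefty2 over Nodal were 1.19, 0.917 and 1.67, against 0.39, 0.364 and 0.636 with PhenDC3. Lefty1 over Lefty2 was 0.872, 1.36 and 0.765 in controls against 0.219, 0.224 and 0.235 with PhenDC3, so that the 3 PhenDC3 libraries were close to one another while the controls were spread. For each of these ratios the groups did not overlap, and the exact two-sided permutation p was 0.1, the smallest that 3 libraries against 3 allow. Lefty1 was lower and Nodal higher in every PhenDC3 library than in any control. The separation of their ratio, and its p, were therefore fixed by those levels and are no further result.

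Tdgf1 over Nodal, the co-receptor against its ligand, was 28.5, 27.3 and 24.2 in controls against 9.37, 13.8 and 10.8 with PhenDC3. Inhbb over Nodal, the 2 ligand genes, was 0.457, 0.422 and 0.313 in controls against 0.0892, 0.0897 and 0.0727 with PhenDC3. Skil over Smad7, the 2 inhibitors inside the cell, was 0.716, 0.509 and 1.16 in controls against 0.279, 0.205 and 0.382 with PhenDC3. Tdgf1, Inhbb and Skil were lower, and Nodal and Smad7 higher, in every PhenDC3 library than in any control. The ratios of this paragraph were therefore also bound to separate.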
